A study of Drosophila melanogaster with 24 samples.

Results

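Transcripts of 9 circadian clock genes were followed across lines of Drosophila melanogaster that had been selected for resistance to different stressors. The genes were Clk, cyc, per, tim, vri, Pdp1, cry, cwo and jet, and a probe set was taken when the platform annotation gave it one of these names and no other gene. This gave 9 of 10844 named genes and 12 of 13966 probe sets, with 3 for tim, 2 for cwo and 1 for each other gene. Testing was limited to probe sets with a log2 value above 4 in at least 3 arrays of the 24, which kept 10 clock probe sets, of 8 genes, among 9023 in all. The probe set of per and the dimmest of the 3 for tim were not above that level on any array and were not tested.

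RNA came from whole adult females, 10 homogenised together per vial, and was hybridised to 1 Affymetrix array per line. There were 8 groups of 3 lines: lines selected for heat resistance, lines named constant 30, lines selected for cold resistance, for longevity, for knock-down resistance, for starvation resistance and for desiccation resistance, and control lines that were not selected. The name constant 30 does not say whether the sampled females had themselves been held at that temperature. The sources used here do not give the age of the females, the generations of selection, the kind of knock-down or the time of day at which the flies were taken. The labels describe the 3 lines of a group as biological replicates, and p-values rest on the spread among them. Each comparison of a regime with control used the same 3 control arrays.

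In the fly clock the transcription factors CLK and CYC act as a pair on E-box sequences and switch on per, tim, vri, Pdp1 and cwo. PER and TIM proteins return to the nucleus and inhibit CLK and CYC, VRI represses Clk and PDP1 activates it, and CWO competes at E-boxes, while CRY is a blue-light receptor and JET an F-box protein through which light leads to the loss of TIM. The loop runs in a small set of brain neurons, in photoreceptors and in peripheral tissues, and in fly heads per, tim and vri transcripts are known to peak around dusk, Clk and cry around dawn.

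The arrays were alike in level, with array medians between 5.46 and 5.57 and between 8544 and 9071 probe sets above a log2 value of 4. The labelled sex fitted the transcripts, since none of the 5 testis markers found reached the tested level (mean log2 values 1.54 to 3.68) and the 3 yolk protein genes averaged 13.88 to 14.69. All values below are GCRMA log2 values made by the authors, changes are differences of group means with the standard error of the limma fit (n = 3 lines per group), and a change was called at a Benjamini-Hochberg adjusted p under 0.05. The number of lines limits the precision, and a probe set's level was set only against its own level in other groups. In whole-fly RNA, fewer cells of a type and less RNA per cell cannot be told apart.

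No clock probe set passed the limma test in any of the 7 comparisons of a regime with control. In heat selected lines 0 of 10 were called, against 2.84% of all probe sets. In knock-down selected lines 0 of 10 were called, against 0.155%, and in desiccation selected lines 0 of 10, against 0.0776%. In the constant 30, cold, longevity and starvation comparisons 0 of 10 were called, against 0% of all probe sets in each. At an unadjusted p under 0.05 the numbers were 2 of 10 in heat selected lines (20.5% of all probe sets), 1 in constant 30 (6.98%), 0 in cold selected (7.9%), 2 in longevity selected (7.95%), 2 in knock-down selected (10.4%), 1 in starvation selected (9.21%) and 1 in desiccation selected lines (7.17%). The F test over the 8 groups called 0 of 10, against 0.0554% of all probe sets, and 2 of 10 had an unadjusted p under 0.05, against 15.4%.

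**Figure D1:**
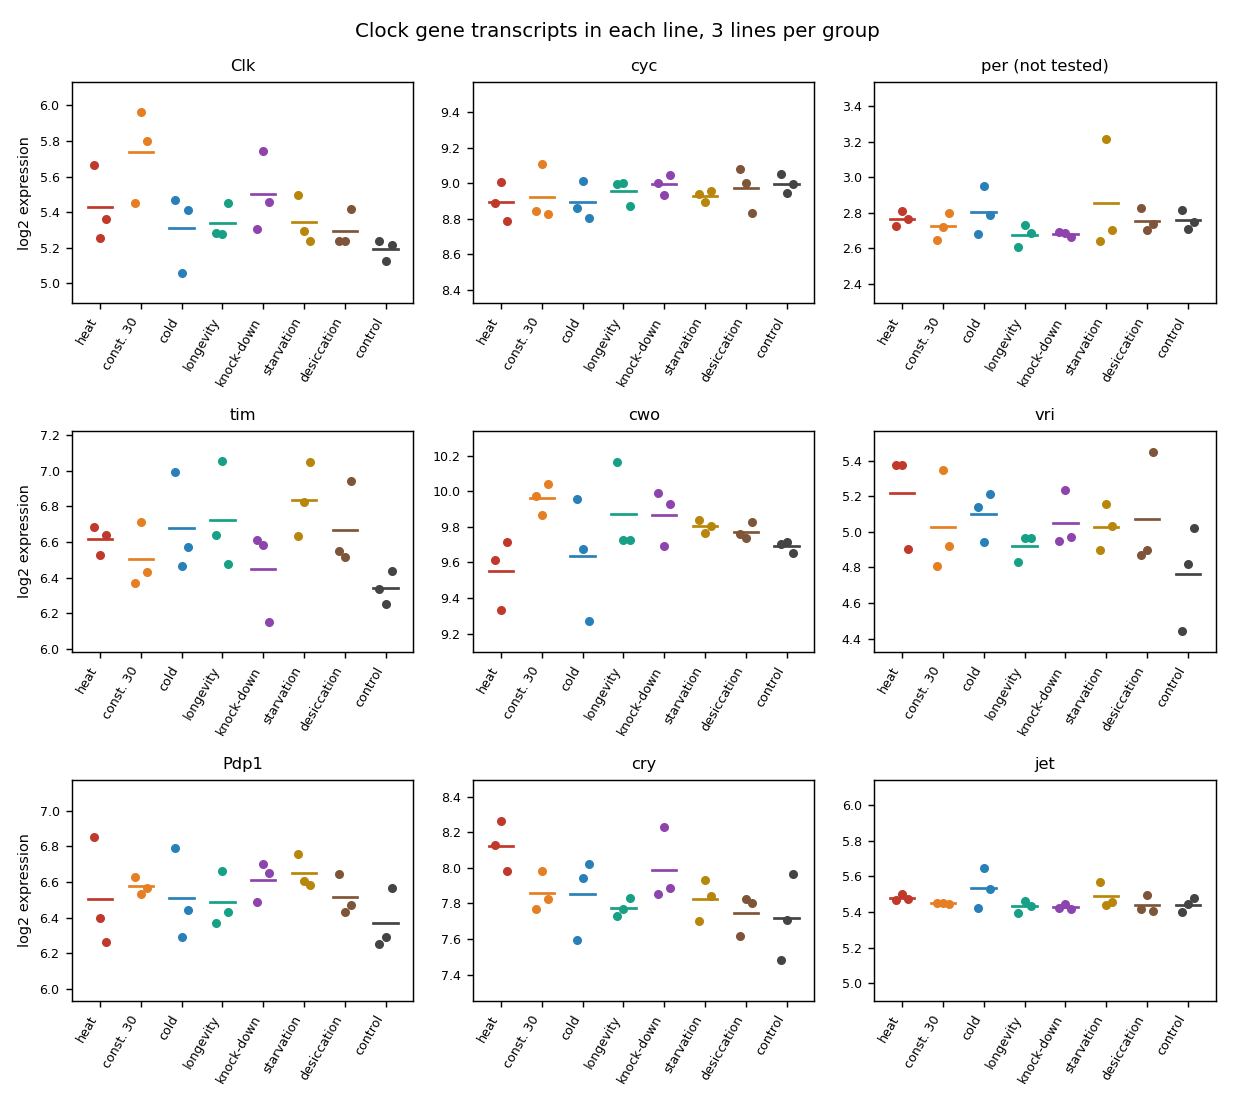
Log2 expression of the 9 clock genes, 1 point per line and a bar at each group mean, with the 7 regimes to the left of control; every panel spans the same range of log2 values. Clk is highest in constant 30, cry and vri in heat selected lines, tim in starvation selected lines, while cyc and jet lie within a narrow band; per was below the tested level.

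Clk, the activator at the head of the loop, had the smallest F test p among the clock probe sets (unadjusted p = 0.0277, rank 905 of 9023). Its log2 values were 5.67, 5.25 and 5.36 in heat selected lines, 5.45, 5.96 and 5.80 in constant 30 lines and 5.47, 5.06 and 5.41 in cold selected lines. They were 5.28, 5.28 and 5.45 in longevity selected, 5.31, 5.75 and 5.46 in knock-down selected, 5.50, 5.29 and 5.24 in starvation selected and 5.24, 5.24 and 5.41 in desiccation selected lines. The control lines had 5.24, 5.12 and 5.21. All 3 lines lay above all 3 control lines in 6 of the 7 regimes, cold being the exception, although the lowest desiccation selected line, the lowest starvation selected line and the highest control line all round to 5.24.

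The group mean of Clk in constant 30 lines was 5.74 ± 0.26, against 5.19 ± 0.06 in control lines (SD, n = 3 each), a difference of 0.55 ± 0.14 or 1.46-fold. Its unadjusted p of 0.000761 ranked 18th of the 9023 probe sets, and after adjustment by limma's Benjamini-Hochberg values it was 0.359, equal to the smallest adjusted p of any probe set in that comparison. Constant 30 and control were the groups with the highest and the lowest mean of Clk. Against the mean of the other 6 regimes, which does not use the control arrays, Clk was 0.37 ± 0.11 higher in constant 30 lines (unadjusted p = 0.00226, adjusted p = 0.588). In the order of group means the step between constant 30 and the next group, knock-down selected, was 0.23, larger than the pooled within-group SD of 0.18. No other neighbouring means of any clock probe set differed by more than that probe set's SD. That SD is of single lines, not of means of 3 lines. The steps were not tested, and such steps were not counted over all probe sets. In knock-down selected lines Clk was 0.31 ± 0.14 above control (adjusted p = 0.429), and 0.19 without knock-down selected line 2. In the F test Clk had an adjusted p of 0.276. For constant 30 against control the change stayed between 0.44 and 0.69 without any one line, and its adjusted p stayed between 0.0945 and 0.984 over all settings tried.

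cyc encodes the partner of CLK and is known not to cycle. Its 24 values ran from 8.79 to 9.11 with a SD of 0.09, and its lowest group mean was 8.89 ± 0.11 in cold selected lines (SD, n = 3). All 7 regime means were below control, by at most 0.10 on the log2 scale. The 95% intervals of these differences together spanned -0.28 to 0.17, so a change of 1 log2 unit lay outside each of them.

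The transcript of per, which encodes one of the inhibitors of the loop, was below the tested level in all groups. Its 24 values had a median of 2.72, a lowest value of 2.61 in a longevity selected line and a highest of 3.22 in starvation selected line 2, whose other 2 lines had 2.64 and 2.70. No comparison of per was made at this signal.

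For tim, which encodes the light-sensitive partner of PER, the brightest probe set was lowest in control. It had 6.68, 6.53 and 6.64 in heat selected, 6.37, 6.71 and 6.43 in constant 30, 6.99, 6.46 and 6.57 in cold selected and 6.64, 7.06 and 6.48 in longevity selected lines. The values were 6.61, 6.58 and 6.15 in knock-down selected, 6.63, 6.82 and 7.05 in starvation selected and 6.55, 6.52 and 6.94 in desiccation selected lines, against 6.34, 6.25 and 6.44 in control lines. The heat, cold, longevity, starvation and desiccation selected lines all lay above the control lines, and the knock-down selected and constant 30 lines overlapped with them. The difference was 0.50 ± 0.17 in starvation selected lines (1.41-fold, adjusted p = 0.379) and 0.38 ± 0.17 in longevity selected lines (adjusted p = 0.594), or 0.22 without longevity selected line 2. The smallest was 0.11 ± 0.17, in knock-down selected lines.

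The other tim probe sets did not follow this one. The middle probe set of the 3 in brightness averaged 3.95 and was above 4 on 9 of the 24 arrays, so it lay near the lower limit of what was tested. It had 4.24, 4.26 and 4.07 in heat selected lines, against 4.01, 4.30 and 3.96 in control lines, and these overlapped. In starvation selected lines it had 3.84, 3.93 and 3.86 and in desiccation selected lines 3.83, 3.82 and 3.84, all below the control lines, in which the brighter probe set was lower than in those same regimes.

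Across the 24 arrays the middle and the brightest tim probe set had a Pearson r of 0.01 (rho = 0.16, permutation p = 0.954 and 0.458), and with group means removed r was 0.39 (rho = 0.33, permutation p = 0.106 and 0.149). The middle and the dimmest probe set varied together, with r = 0.70 (rho = 0.80, permutation p = 0.00016 and 1e-05, the second being the smallest the permutations can give, adjusted over 4 pairs 0.00064 and 4e-05). Without the 2 arrays farthest from the median r was 0.64, and with group means removed it was 0.46 (rho = 0.46, adjusted p = 0.127 and 0.155). Of all clock probe sets and comparisons, only this middle tim probe set in heat selected lines against the mean of the other 6 regimes was called, at 4.19 against 3.88, a difference of 0.31 ± 0.09 (limma adjusted p = 0.0326). That was 1 of 10 clock probe sets, against 11.1% of all probe sets in the same comparison. The call was lost without heat selected line 1 (adjusted p = 0.098) or line 2 (adjusted p = 0.286), with quantile normalization (0.19, adjusted p = 0.122), with array weights (adjusted p = 0.0604) and with a covariate for RNA quality (adjusted p = 0.454). Calls over all probe sets in these settings numbered 649, 2, 835, 595 and 2, in place of 998. The brighter tim probe set differed by -0.03 ± 0.13 in the same comparison.

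**Figure D2:**
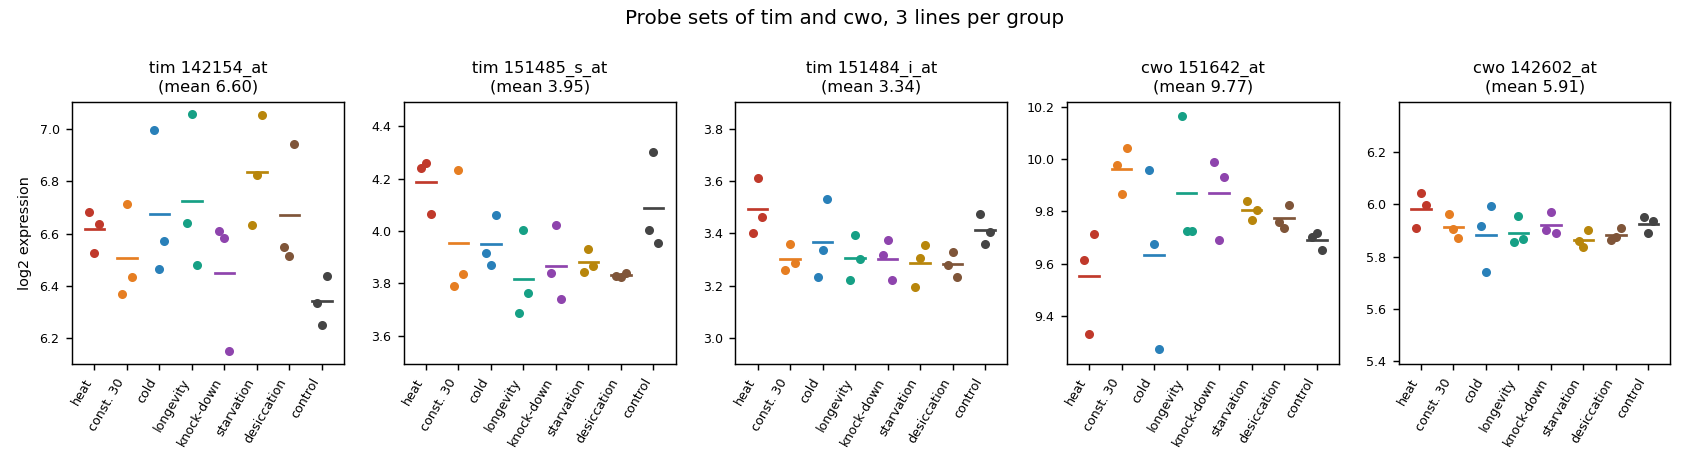
Log2 expression of the 3 tim and 2 cwo probe sets, 1 point per line and a bar at each group mean, 7 regimes left of control. Panels run from the brightest to the dimmest probe set of each gene, with its ID and mean. The brightest for tim is lowest in control, while the other two are highest in heat selected lines; the dimmer for cwo stays between 5.74 and 6.04 while the brighter runs from 9.27 to 10.16.

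cwo encodes a repressor that binds E-boxes. Its brighter probe set had 9.62, 9.33 and 9.71 in heat selected, 9.98, 9.86 and 10.04 in constant 30, 9.96, 9.68 and 9.27 in cold selected and 10.16, 9.72 and 9.72 in longevity selected lines. It had 9.99, 9.69 and 9.93 in knock-down selected, 9.84, 9.76 and 9.80 in starvation selected and 9.76, 9.74 and 9.83 in desiccation selected lines, against 9.70, 9.72 and 9.65 in control lines. The constant 30, longevity, starvation and desiccation selected lines lay above all control lines, and the heat, cold and knock-down selected lines overlapped with them. Heat selected lines were lowest and constant 30 lines highest, and their difference, heat minus constant 30, was -0.41 ± 0.14 (adjusted p = 0.105), with no overlap between the lines. With the 3' minus 5' signal difference of the maker's control transcripts, a measure of RNA quality, as a covariate it was -0.24 (adjusted p = 0.597).

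The dimmer cwo probe set had a SD of 0.06 over all arrays and changes of -0.06 to 0.06 against control. Its correlation with the brighter one was -0.43 (rho = -0.40, permutation p = 0.0376 and 0.0572, adjusted over 4 pairs 0.0752 and 0.114), and -0.44 with group means removed. The 2 probe sets of cwo therefore did not rank the groups alike: heat selected lines were lowest on the brighter and highest on the dimmer.

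vri and Pdp1 encode the factors that act on the Clk promoter, one as a repressor and the other as an activator. vri had 5.37, 5.37 and 4.90 in heat selected, 4.81, 5.35 and 4.92 in constant 30, 5.14, 4.94 and 5.21 in cold selected and 4.83, 4.97 and 4.97 in longevity selected lines. It had 4.95, 5.23 and 4.97 in knock-down selected, 4.90, 5.16 and 5.03 in starvation selected and 4.87, 4.90 and 5.45 in desiccation selected lines, against 4.44, 4.82 and 5.02 in control lines. Every regime overlapped with control, since the control lines spanned 4.44 to 5.02. The largest difference was in heat selected lines, 0.45 ± 0.17 or 1.37-fold (adjusted p = 0.141), and without heat selected line 3 it was 0.61 with an adjusted p of 0.0491. Without control line 1, the control line with the lowest vri, it was 0.30 with an adjusted p of 0.45.

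Pdp1 ranged from 6.25 in a control line to 6.85 in a heat selected line. In starvation selected lines it had 6.76, 6.61 and 6.58, against 6.25, 6.29 and 6.56 in control lines, which did not overlap, and the difference was 0.28 ± 0.14 (adjusted p = 0.55). In the other 6 regimes its difference from control was 0.12 to 0.24 and the lines overlapped with control.

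cry, the gene of the light receptor, was highest in heat selected lines. It had 8.13, 8.26 and 7.98 in heat selected, 7.77, 7.98 and 7.83 in constant 30, 7.59, 7.94 and 8.02 in cold selected and 7.73, 7.77 and 7.83 in longevity selected lines. It had 7.85, 8.23 and 7.88 in knock-down selected, 7.70, 7.93 and 7.84 in starvation selected and 7.62, 7.82 and 7.80 in desiccation selected lines, against 7.48, 7.71 and 7.97 in control lines. The heat selected lines lay above the control lines, although the nearest pair had 7.98 and 7.97, and the other 6 regimes overlapped with control.

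The difference of cry in heat selected lines was 0.41 ± 0.13, or 1.32-fold (unadjusted p = 0.00474, adjusted p = 0.0804). Without control line 3, the control line with the highest cry, it was 0.53 with an adjusted p of 0.0223, and without heat selected line 3 it was 0.48 with an adjusted p of 0.0488. Without control line 1, the control line with the lowest cry, it was 0.29 with an adjusted p of 0.321, and in a fit of the heat selected and control arrays alone the adjusted p was 0.223. Against the mean of the other 6 regimes it was 0.28 ± 0.10 (adjusted p = 0.0626). In knock-down selected lines cry was 0.27 ± 0.13 above control (adjusted p = 0.475), and 0.15 without control line 1 or without knock-down selected line 2.

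jet, which encodes the F-box protein that acts on TIM, varied least among the genes tested, with 24 values between 5.40 and 5.65. Its changes against control ran from -0.01 in knock-down selected lines to 0.09 in cold selected lines (SE 0.06), and the 95% intervals over the 7 comparisons spanned -0.13 to 0.21.

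**Figure D3:**
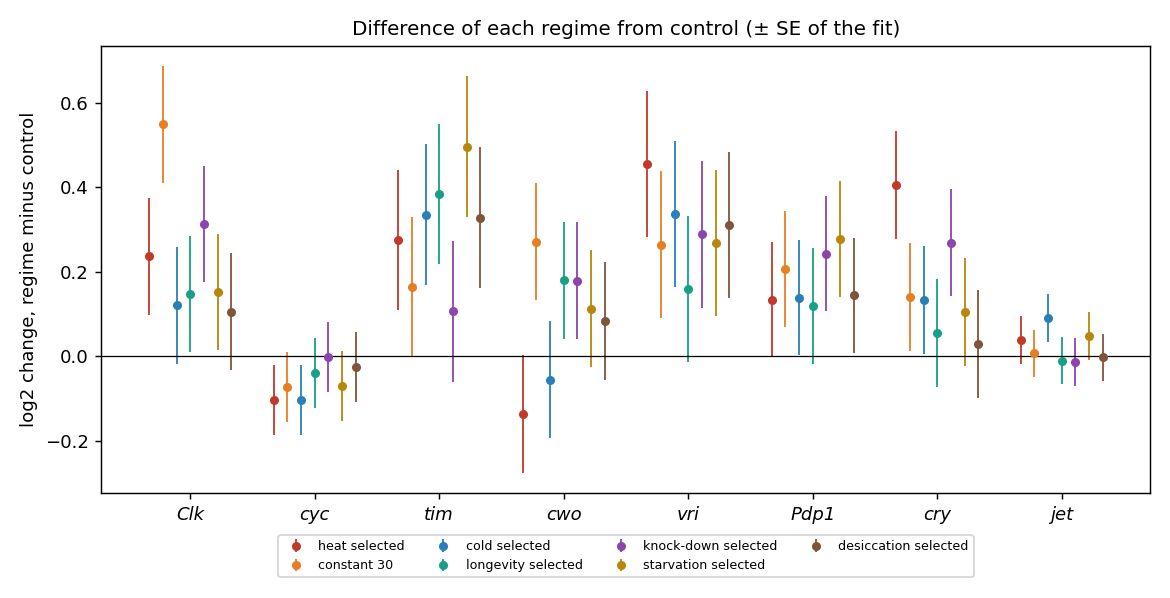
Difference of each regime from control in log2 expression for the 8 tested clock genes (brightest probe set), with the standard error of the fit as bars. Points of Clk, tim, vri, Pdp1 and cry lie above 0 in all 7 regimes, those of cyc at or below 0, and all 7 differences of a gene share the same 3 control arrays.

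Seen together, the tested clock genes had their lowest group mean in control for 5 of 8 genes (Clk, tim, vri, Pdp1 and cry), against 11.9% of all 9023 probe sets, a count made after the values were seen. It took only the brightest probe set of each gene, while the share is over probe sets. On the other tested probe sets of tim and cwo, control lay above every regime but heat selected. The same 3 control arrays enter each of the 5 genes. Without control line 1 the count was 3 of 8 (Clk, tim and Pdp1, against 11.7%). It was 5 of 8 without control line 2 (against 11.8%) and 6 of 8 without control line 3 (against 17%). In the mean of the 7 regimes against control, 0 of 10 clock probe sets were called, against 0% of all probe sets, while 3 of 10 had an unadjusted p under 0.05, against 10.9%. These 3 were tim, 0.30 ± 0.13, vri, 0.30 ± 0.13, and Clk, 0.23 ± 0.10 (adjusted p = 0.39, 0.422 and 0.426). Without control line 1 the value for vri was 0.14 (adjusted p = 0.963). The median change of the 10 probe sets there was 0.13, against -0.02 over all 9023. Low control values were not particular to clock genes. In the same comparison 10 of 11 eye genes and 4 of 4 neuron genes, described below, lay above control (medians 0.41 and 0.19). Of the egg chamber, germ line and fat body genes 0 of 9, 0 of 7 and 2 of 7 did. The means of the eye genes (6.48) and neuron genes (5.30) were also lowest in control, unlike those of the egg chamber, germ line and fat body.

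The number of clock probe sets whose lines did not overlap with control was 3 of 10 in heat selected lines (23.4% of all probe sets), 2 in constant 30 (13.1%), 1 in cold selected (11.1%) and 3 in longevity selected lines (12.8%). It was 1 in knock-down selected (15%), 5 in starvation selected (15.4%) and 4 in desiccation selected lines (17%). In the starvation and desiccation comparisons 1 of these, the middle tim probe set, lay below control and the others above. In the remaining regimes all lay above control.

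Heat selected and constant 30 lines were also compared directly. Of the clock probe sets 0 of 10 were called, against 0.366% of all probe sets, and 2 of 10 had an unadjusted p under 0.05, against 23.1%. Besides cwo this was Clk, with a difference, heat minus constant 30, of -0.31 ± 0.14 (adjusted p = 0.183), or -0.20 without constant 30 line 2. In constant 30 against the mean of the other 6 regimes 0 of 10 were called, against 0%, and 1 of 10 had an unadjusted p under 0.05, against 5.76%.

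Since some clock transcripts are known to peak around dawn and others around dusk, the mean of Clk and cry minus the mean of per, tim and vri was taken on each array as a description. It averaged 1.91 ± 0.06 in heat selected, 2.05 ± 0.05 in constant 30, 1.72 ± 0.13 in cold selected and 1.78 ± 0.16 in longevity selected lines. It averaged 2.02 ± 0.17 in knock-down selected, 1.68 ± 0.17 in starvation selected and 1.69 ± 0.13 in desiccation selected lines, against 1.84 ± 0.02 in control lines (SD, n = 3 each). The difference was largest in constant 30 and knock-down selected lines and smallest in starvation selected lines. Leaving out the dim per probe set kept constant 30 highest (1.03) and starvation and desiccation selected lowest (0.65 each), with control at 0.90. Heat selected lines, which lay above control with per, lay below it without per, at 0.86. With no time of day recorded, a difference in the phase of the clock and one in the level of its transcripts cannot be told apart.

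Pairs of clock genes were compared over the 24 arrays, 28 pairs in all, each adjusted over the 28. vri and cry varied together, with r = 0.69 and rho = 0.68 (permutation p = 0.00015 and 0.00045, adjusted 0.0042 and 0.0126), r was 0.72 without the 2 arrays farthest from the median of vri, and with group means removed r was 0.67 and rho 0.70 (adjusted p = 0.0375 and 0.0325). cry and cwo varied in opposite directions within groups, with r = -0.67 and rho = -0.70 (permutation p = 0.00015 and 0.00049, adjusted 0.0042 and 0.0137). Over all 24 arrays that relation was r = -0.52 and rho = -0.51 (adjusted p = 0.145 and 0.0826), it was -0.38 without the 2 arrays farthest from the median, and it was -0.29 as a partial correlation given the 3' minus 5' difference.

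Some other pairs of genes within the feedback loop gave weaker relations than vri and cry. Clk and Pdp1 had r = 0.48 (rho = 0.55, adjusted p = 0.15 and 0.0826), Clk and vri r = 0.43 (rho = 0.36, adjusted p = 0.174 and 0.246), and tim and vri, both targets of CLK and CYC, r = 0.45 (rho = 0.50, adjusted p = 0.174 and 0.0826). Clk and tim had r = 0.08 (rho = 0.21, adjusted p = 0.847 and 0.616).

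**Figure D4:**
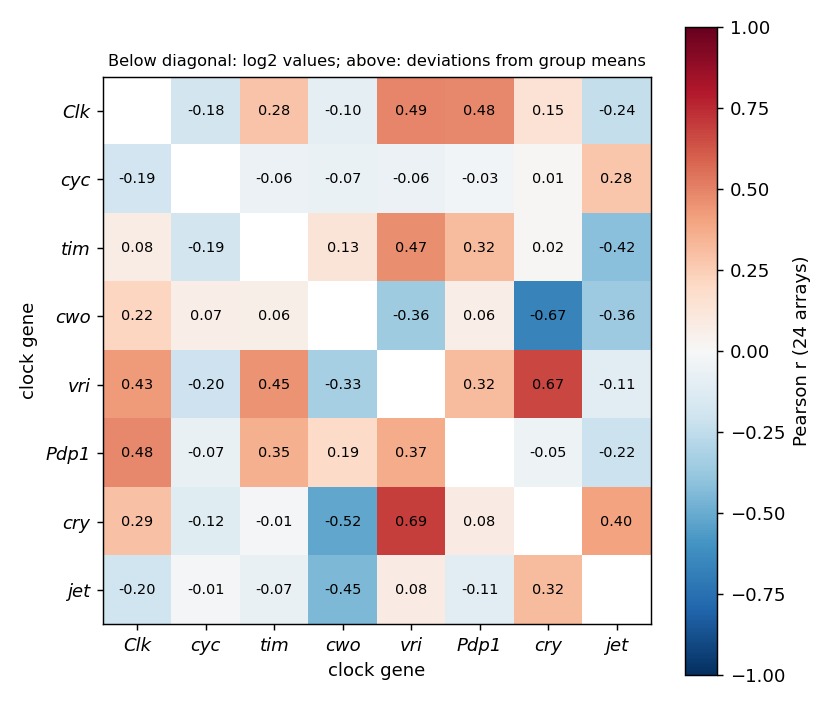
Pearson r between the 8 tested clock genes over 24 arrays, below the diagonal for log2 values and above it for deviations from the group means. The vri and cry pair is positive in both (0.69 and 0.67) and the cry and cwo pair negative in both (-0.52 and -0.67).

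Markers of other tissues moved with some of these genes. The mean of 11 eye genes (phototransduction and photoreceptor genes, 11 of 15 listed being matched) was 7.18, 7.16 and 6.75 in heat selected lines and 6.82, 7.14 and 6.89 in knock-down selected lines, against 6.30, 6.32 and 6.83 in control lines, and ran from 6.62 to 6.91 in the other 5 regimes. In heat selected lines, where 2.84% of all probe sets were called, 5 of the 11 were called higher than control (median change 0.61), among them Arr1 and Arr2, which encode arrestins, and 3 of 4 tested neuron genes were called higher (median 0.47). Of 9 egg chamber genes 3 were called lower (median -0.62), of 7 fat body genes 1 was called lower (median -0.30) and of 7 germ line genes 0 (median -0.19). None of these eye, neuron, egg chamber and fat body calls was left without control line 1, without control line 2, without heat selected line 2, with the 3' minus 5' covariate or in a fit of the heat selected and control arrays alone, and without heat selected line 1 the fat body call alone was left. Over all probe sets the calls then numbered 0, 1, 0, 1, 0 and 23, in place of 256. Without control line 3 the eye calls numbered 8, and without heat selected line 3 they numbered 7. Calls over all probe sets also rose there, to 517 and 591.

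Across the 24 arrays cry followed the eye score, with r = 0.86 and rho = 0.85 (permutation p = 1e-05 each, the smallest the permutations can give, adjusted over 24 relations 0.00024 each). It was r = 0.78 without the 2 arrays farthest from the median of cry, and r = 0.80 and rho = 0.84 with group means removed (adjusted p = 0.00096 and 0.0012). vri had r = 0.65 and rho = 0.57 with the same score (adjusted p = 0.00828 and 0.0474), and 0.62 and 0.60 within groups (adjusted p = 0.0322 and 0.0428).

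The egg chamber score, 11.18, 11.69 and 12.21 in heat selected lines against 12.69, 12.58 and 12.35 in control lines, ran the other way. With it cry had r = -0.63 and rho = -0.51 (adjusted p = 0.00848 and 0.0779), and r = -0.45 and rho = -0.47 within groups (adjusted p = 0.146 and 0.182). For vri the values were r = -0.58 and rho = -0.47 (adjusted p = 0.0165 and 0.083), and r = -0.62 and rho = -0.64 within groups (adjusted p = 0.0718 and 0.0428). Clk had r = -0.39 and rho = -0.33 with it (adjusted p = 0.151 and 0.298), and r = -0.64 and rho = -0.66 within groups (adjusted p = 0.0909 and 0.0428). With the eye score Clk had r = 0.41 and rho = 0.33 (adjusted p = 0.151 and 0.298), and the constant 30 lines, where Clk was highest, had eye scores of 6.72, 6.80 and 6.79. The 3' minus 5' difference was 1.62, 1.34 and 1.68 in heat selected lines, against 1.74, 1.69 and 1.82 in control lines, and ran from 1.50 to 1.93 in the other 6 regimes. With it cry had r = -0.57 and rho = -0.36 (adjusted p = 0.0165 and 0.285), r was -0.20 without the 2 arrays farthest from the median of cry, and -0.32 within groups. The brighter cwo probe set had r = 0.55 and rho = 0.47 with it (adjusted p = 0.0245 and 0.083), r = 0.51 without the 2 arrays farthest from the median of cwo, and r = 0.50 and rho = 0.37 within groups (adjusted p = 0.0909 and 0.378). With this difference as a covariate, cry in heat selected lines was 0.30 above control (adjusted p = 0.439). These relations were chosen after the values were seen, and the part of the tissue markers in the levels of cry and vri was not tested.

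**Figure D5:**
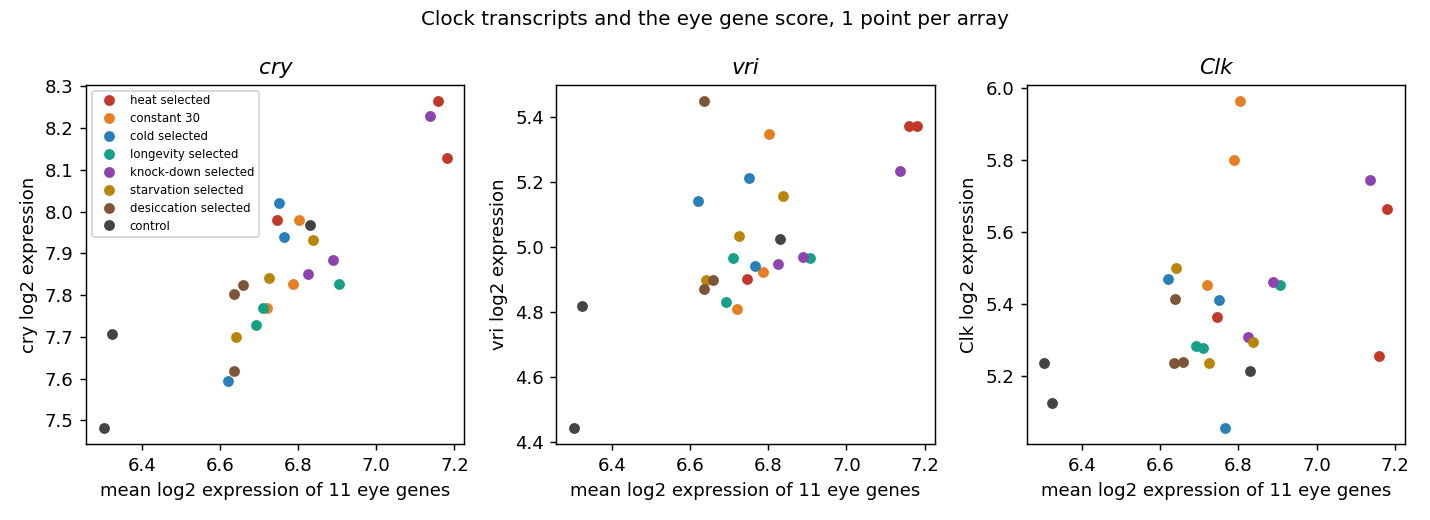
Log2 expression of cry, vri and Clk against the mean log2 expression of 11 eye genes, 1 point per array, coloured by group. cry follows the eye score over all 24 arrays (r = 0.86), vri less closely (r = 0.65), and the 2 highest Clk values, both from constant 30 lines, lie in the middle of the eye score's range.

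Other genes of the clock pathway were taken from 3 lists. Of 17 genes for enzymes and partners that modify or degrade clock proteins, 12 were matched and tested. The others, sgg, CkIIalpha, CkIIbeta, nmo and mts, had no matched probe set. Of the 12, 0 were called in any comparison of a regime with control, and the medians of the 7 comparisons lay between -0.09 and 0.02. wdb, which encodes a regulatory subunit of protein phosphatase 2A, had the largest of the values named by the F test, -0.42 ± 0.12 in heat selected lines (adjusted p = 0.0606). tws, another subunit of that phosphatase, was the 1 of 12 called in heat selected lines against the mean of the other 6 regimes, where 11.1% of all probe sets were called, with a change of -0.26 ± 0.08 (adjusted p = 0.0346). In that comparison wdb was at -0.29 (adjusted p = 0.0521). The call of tws was lost without heat selected line 1, 2 or 3 (adjusted p = 0.065, 0.29 and 0.0595) and with the 3' minus 5' covariate (adjusted p = 0.52). Over all probe sets the calls in these settings numbered 649, 2, 1109 and 2, in place of 998.

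Of 9 genes for other transcription and translation factors of the clock, 7 were matched and 5 tested, and 0 were called in any comparison. Atx2, which encodes a factor that promotes translation of per, had its largest difference in desiccation selected lines, -0.39 ± 0.08 (adjusted p = 0.0759), and nej, which encodes the coactivator CBP, in starvation selected lines, -0.35 ± 0.10 (adjusted p = 0.293). tyf, the gene of a protein that acts with ATX2 on per, had differences of -0.19 to -0.03.

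Of 15 clock output genes, 14 were matched and 8 tested, and 0 were called in a comparison with control. Pdf, the neuropeptide gene of the ventral clock neurons, averaged 1.71, below the tested level. In heat selected lines against the mean of the other 6 regimes 3 of the 8 were called: Slob, a gene for a protein that binds a potassium channel, rose by 0.27 ± 0.07 (adjusted p = 0.0282), Dh44, a neuropeptide gene, rose by 0.29 ± 0.08 (adjusted p = 0.0309), and Cyp18a1, a gene for an enzyme of ecdysteroid breakdown, fell, with a change of -0.30 ± 0.09 (adjusted p = 0.0338). The share of all probe sets called in this comparison was 11.1%. Slob and Dh44 averaged 4.82 and 4.29, not far above the filter at a log2 value of 4. None of the 3 calls was left without heat selected line 2 (adjusted p of 0.255 to 0.345) or with the 3' minus 5' covariate (0.378 to 0.489), where 2 of the 9023 probe sets were called in place of 998, and 1 was left without heat selected line 3.

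Genes most like 4 clock genes were found by Pearson r over the 24 arrays among 5325 tested probe sets of genes with a name, as a description. The highest with Clk were kumpel (0.77), Def (0.76), the gene of an antibacterial defensin, and Kank (0.71), and the lowest was Rpp25 (-0.68). For tim the highest were noc and Lip4 (both 0.62) and Eogt (0.59), and the lowest was disp (-0.68). For vri they were sls (0.83), the gene of a titin-like protein of muscle, RyR (0.81), the ryanodine receptor gene, and P5cr-2 (0.81), with Ge-1 lowest (-0.72). All arrays enter each value, so differences in RNA quality and in tissue make-up are shared by the genes compared, and per, whose signal was below the tested level, is left without such a list.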

How the data were processed

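The deposited log2 values were made by the authors with GCRMA, per the submitters' processing notes, which name no settings. That they are log2 values was judged from their range, which ran from -0.18 to 14.95. No normalization was added. The 44 control probe sets were left out of the 14010 deposited, and 9023 of 13966 passed the filter. Gene names came from the platform annotation, updated by gene identifier to Release 6 symbols (12394 of 12443 probe sets that name 1 gene). The probe set with the highest mean stood for a gene.

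limma 3.58.1 in R 4.3.3 fitted 1 mean per group to the 24 arrays (lmFit, then eBayes, with 16 residual and 3.56 prior degrees of freedom), with two-sided p-values adjusted by Benjamini and Hochberg over all 9023 probe sets within each comparison. The code was tested on simulated data. Correlations used 100000 permutations, two-sided, within groups for deviations from group means, with ranks for rho from scipy 1.17.1.

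The members and lists were chosen with earlier results of these data known. The named genes were the 9 clock genes, up to 3 genes per clock pathway list by the F test, the called members of those lists, and the 3 highest and 3 lowest correlates of Clk, per, tim and vri, of which those of per were left out for its low signal. The called list members and their alternatives, the relations with tissue scores and RNA quality and those between probe sets of a gene, and the count of lowest group means with its alternatives, were chosen after the values were seen. Alternatives were testing all probe sets, a filter at 6, array weights, quantile normalization, the replicate number as a block, a trended prior, a 3' minus 5' covariate, fits of the compared groups alone, and leaving out each line. Deviations of same-numbered lines had r from -0.35 to 0.56 (median 0.07 over 84 pairs). Those of differently numbered lines had r from -0.50 to 0.44 (median -0.02 over 168 pairs). The first median was under 0.1, the level taken for pairing, so the numbers were not used to pair lines. Promoter sequences were not used here.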

Additional observations from a re-analysis of the deposited data

How the results depend on the processing

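The count of called clock probe sets stayed at its value under every alternative run in 10 of the 12 comparisons. In heat selected lines against control it was 0, became 1 with the replicate block (cry, adjusted p = 0.0348), and ran from 0 to 2 when 1 line was left out, with 1 without control line 3 (cry) and 2 without heat selected line 3 (vri and cry). Calls over all 9023 probe sets rose in the same settings, to 410, 517 and 591 in that order, in place of 256. In heat selected lines against the mean of the other 6 regimes the clock count was 1, became 2 with the replicate block (cry added, adjusted p = 0.0246) and 3 with no filter, 0 with the filter at 6, with quantile normalization, with array weights and with the 3' minus 5' covariate, and ran from 0 to 3 when 1 line was left out. All calls numbered 1239 with the block and 2793 of 13966 with no filter, in place of 998. They numbered 764 with the filter at 6, 835 with quantile normalization, 595 with array weights and 2 with the covariate. The tim probe set called there is dim and was not tested with the filter at 6. Without the lines named, cry in that comparison had an adjusted p of 0.0418 (without cold selected line 3) and 0.0311 (without knock-down selected line 2), and cwo reached 0.0318 (without cold selected line 3). All calls then numbered 1449 without cold selected line 3 and 1464 without knock-down selected line 2, in place of 998. The causes were not tested. Of 349 alternative values for the 18 log2 changes with an unadjusted p under 0.05, 349 kept their direction and 335 their side of the threshold. Over all probe sets the calls moved more: 0 to 591 in heat selected lines against control (256), 2 to 2793 in heat selected lines against the other 6 regimes (998, and 2 both without heat selected line 2 and with the covariate), 0 to 430 in heat selected against constant 30 lines (33), 0 to 237 in knock-down selected (14), 0 to 42 in desiccation selected (7), 0 to 177 in starvation selected (0), 0 to 49 in constant 30 (0), 0 to 35 in cold selected (0) and 0 to 37 in longevity selected lines (0) against control. For the mean of the 7 regimes it was 0 to 267 (0), for constant 30 against the other 6 regimes 0 to 9 (0), and for the F test 2 to 78 (5). Signals near the filter limit what can be read from per and from the dimmer tim probe sets.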
